A study of Mus musculus with 3 samples.

Results

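Collagen chain genes were followed across 5 cell classes of 3 mouse pancreatic tumours. The chains were all genes whose symbol is Col, a number, a and a number and that had at least 50 counted transcripts in the whole data set. Of 44 such symbols 38 passed, out of 28692 genes measured, and they were 10 fibrillar, 6 basement membrane, 6 beaded filament, 6 fibril-associated, 3 short chain, 3 transmembrane and 2 multiplexin chains, the anchoring fibril chain Col7a1, and Col28a1. The 6 symbols left out were Col2a1, Col9a1, Col17a1, Col19a1, Col22a1 and Col26a1, with between 1 and 44 transcripts each. Col26a1 with 44 stood just outside the limit and Col6a4 with 52 just inside, and the limit was applied to all cells together, without regard to class.

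The tumours, labelled KPC tumor 1, 2 and 3, came from the KPf/fC mouse strain, which carries floxed Trp53 alleles and Cre recombinase, so that every tumour shared 1 genotype; the driver of Cre, ages and treatments are not given in the labels. Cells had been sorted as negative for CD45, a surface protein of blood cells, CD31, one of endothelial cells, and PDGFRa, one of many fibroblasts, and the remaining cells were profiled by the 10x 3' v2 method, which reads transcripts near their 3' ends and counts them by molecular tags (UMIs). The tumours form 1 group with no control tissue, and the labels do not say whether they came from separate animals, so p-values measure only the spread between these tumours.

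A collagen is a trimer of α chains wound into a triple helix. Types I, III and V build the fibrils of connective tissue, type IV builds the sheet of basement membranes under epithelia and around vessels, and type VI forms beaded filaments beside them. Pancreatic tumours are known for a dense collagen-rich stroma, whose fibrillar collagen is attributed mainly to fibroblasts and stellate cells.

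Cells were placed in a class where both of a pair of marker genes had at least 1 UMI: Epcam and Cdh1 for epithelial cells, Mfap5 and Islr for fibroblasts, Rgs5 and Higd1b for mural cells (the pericytes and smooth muscle of vessel walls), Upk3b and Lrrn4 for mesothelial cells (the lining of the abdominal cavity), and Pecam1 and Cdh5 for endothelial cells. Of 19576 cell barcodes, holding 53162622 to 67262634 UMIs per tumour, tumours 1, 2 and 3 gave 2365, 1669 and 3261 epithelial cells, 772, 447 and 914 fibroblasts, 250, 159 and 302 mural cells, 207, 62 and 56 mesothelial cells, and 198, 19 and 61 endothelial cells. The sort sets these numbers: the fibroblasts and endothelial cells are those left after a sort against them. Barcodes that met no rule (1880, 3675 and 2733) held 41.1%, 60.1% and 44.8% of all collagen UMIs and are outside every comparison between classes, and 130, 41 and 101 barcodes that met several rules were also left out. Between pairs of tumours 50, 65 and 57 barcode sequences recurred.

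Further markers that the rule did not use fitted the class names in part. Each class had the highest summed level of its own markers except the fibroblasts: the 8 fibroblast markers stood at 4583 to 7987 counts per 1000000 UMIs (CPM) there and at 6846 to 11883 CPM in mesothelial cells, which also had 2073 to 3489.9 CPM of the 9 epithelial markers. The part of this overlap in the mesothelial values was not tested. The 19 endothelial cells of tumour 2 stood apart, with 1214 CPM of the fibroblast markers against 243 and 466 CPM in tumours 1 and 3, and 2902 CPM of the 8 endothelial markers against 5341 and 5148 CPM. With fewer than 20 cells this sum was left out of the main fit, so the endothelial results printed from it rest on tumours 1 and 3. Its levels are still given. The limit of 20 cells was applied to each alternative run by itself. With barcodes of several classes kept, this class of tumour 2 had 22 cells and entered that run. The 7 immune markers stayed at or below 26.7 CPM in every class and tumour, with Ptprc at 0 in mesothelial and endothelial cells, and acinar digestive enzymes ranged from 19.6 to 2456 CPM.

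Collagen chains made up the largest share of transcripts in fibroblasts and the smallest in epithelial cells. The 38 chains together took 2.87%, 2.03% and 2.36% of all UMIs of fibroblasts in tumours 1, 2 and 3. They took 1.15%, 1.25% and 1.38% in mural cells, 0.660%, 0.576% and 0.539% in mesothelial cells, 0.485%, 0.511% and 0.691% in endothelial cells, and 0.0771%, 0.0774% and 0.0807% in epithelial cells. Fibroblasts, mural cells and epithelial cells did not overlap with any other class in any tumour, while mesothelial and endothelial cells overlapped. A level per class is an average over its cells, so it rises with more cells holding a transcript or with more transcripts per cell. With cells thinned to the same depth, Col3a1 was seen in 99.9%, 98.0% and 98.1% of fibroblasts in tumours 1, 2 and 3. The shares were 86.8%, 88.7% and 87.2% in mural cells and 93.2%, 91.9% and 76.4% in mesothelial cells. Its mean levels were 7230, 1946 and 2052 CPM in these classes, so transcripts per cell differed there too. In epithelial cells the share itself was low, at 21.4%, 15.9% and 14.2%. The sum of the 38 chains was not split in this way. The makeup differed as well: Col1a1, Col1a2 and Col3a1 gave 74.5% ± 4.45 (SD over 3 tumours) of collagen UMIs in fibroblasts and 69.6% ± 4.43 in mesothelial cells, but 39.4% ± 1.94 in mural cells. The type IV chains gave 4.40% ± 1.24 in fibroblasts, 28.9% ± 4.72 in mural cells and 63.5%, 41.8% and 59.8% in endothelial cells of tumours 1, 2 and 3.

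**Figure D1:**
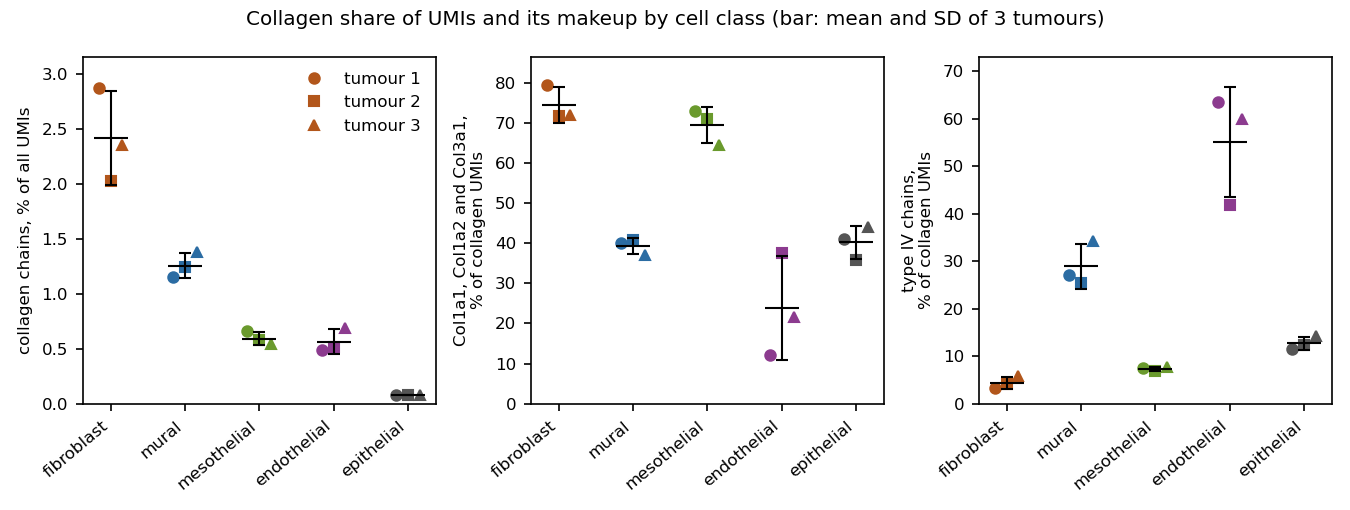
Share of all UMIs taken by the 38 collagen chains (left), and the shares of collagen UMIs from Col1a1, Col1a2 and Col3a1 (middle) and from type IV chains (right), in percent, for 5 cell classes. Symbols are tumours, and bars give the mean and SD of 3 tumours. Fibroblasts lie highest on the left at 2.42% ± 0.43, and endothelial cells lie highest on the right, with tumour 2, of 19 cells, below the other tumours.

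By mean level 21 of the 38 chains were highest in fibroblasts, 8 in mural cells, 4 in mesothelial cells, 4 in epithelial cells and 1 in endothelial cells, and for 25 the same class was highest in all 3 tumours. Sparse chains weigh on these counts: Col9a3, Col20a1 and Col11a2, highest in epithelial cells, had means of 2.66, 0.408 and 0.963 CPM there. Among the 23 chains with a mean of at least 20 CPM in a class, the counts were 14, 6, 1, 1 and 1. For 20 of these 23 the same class was highest in all 3 tumours. Such counts were not made over all genes. Differences were tested with edgeR's quasi-likelihood test on UMIs summed per class and tumour, with the tumour as a block and Benjamini-Hochberg adjustment over 11830 tested genes; 30 of the 38 chains had enough UMIs for the test, and 8 did not. A chain had to be high in some class to be tested, so the counts below describe the tested chains only. Log2 changes are given with their SE, as the first class minus the second, and a call is an adjusted p under 0.05.

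Against epithelial cells, 27 of the 30 tested chains were higher in fibroblasts and 2 were lower, with a median log2 change of 4.54. Of all tested genes 26.7% were called higher and 27.8% lower, 54.6% in either direction, with a median of -0.07. Mural cells had 7 chains higher and 18 lower than fibroblasts (median -1.42), against 10.1% and 13.4% of all genes, 23.4% in either direction. Mesothelial cells had 2 higher and 20 lower than fibroblasts (median -1.90), against 11.4% and 11.1% of all genes, 22.6% in either direction. Endothelial cells had 4 higher and 18 lower than fibroblasts (median -4.05), against 11.8% and 15.6% of all genes, 27.4% in either direction. Against mural cells, endothelial cells had 1 chain higher and 14 lower (median -2.31), against 9.41% and 9.61% of all genes, 19.0% in either direction. The 4 comparisons with fibroblasts share the fibroblast sums. Without tumour 1 the endothelial comparison with fibroblasts rests on tumour 3 alone, and then 10 of its chains were called lower.

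**Figure D2:**
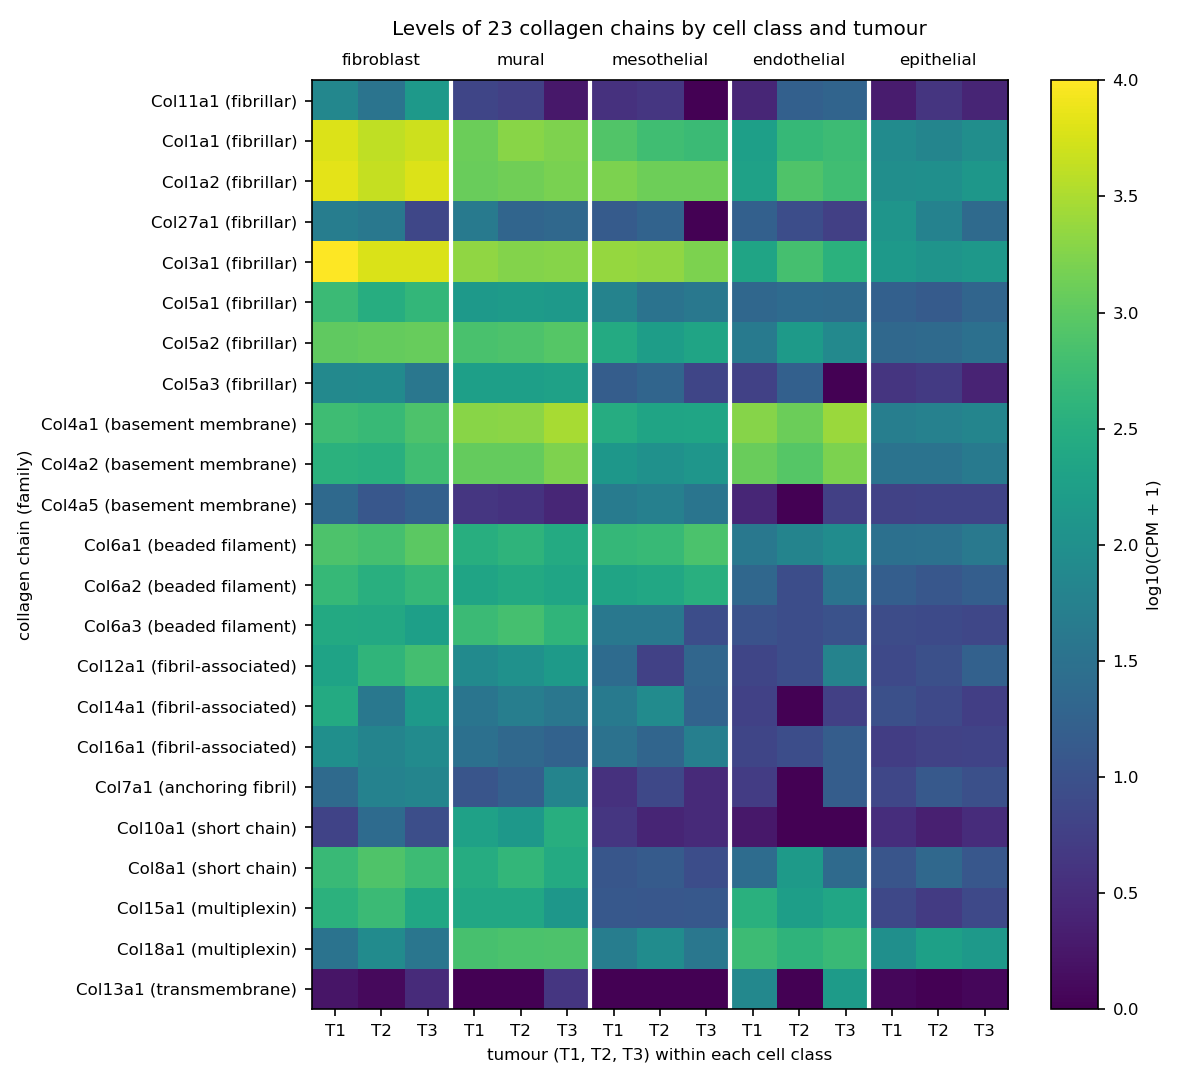
Level of the 23 collagen chains with a mean of at least 20 CPM in at least 1 class, as log10(CPM + 1), in 5 classes (blocks of columns) and 3 tumours (T1 to T3), with the family in brackets. The fibrillar rows other than Col27a1 (brightest under epithelial cells) and Col5a3 (under mural cells) are brightest under fibroblasts, Col4a1 and Col4a2 under mural and endothelial cells, Col10a1 under mural cells and Col13a1 under endothelial cells of T1 and T3.

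The major fibrillar chains were highest in fibroblasts in every tumour. Col3a1, the chain of the type III homotrimer, stood at 9810.5, 5926 and 5954 CPM in fibroblasts of tumours 1, 2 and 3, 2360.0, 2182 and 1613 CPM in mesothelial cells and 2145, 1828 and 1864 CPM in mural cells. Endothelial cells had 218, 654 and 363 CPM, highest in the 19 cells of tumour 2, and epithelial cells 139, 115 and 134 CPM. No mural or mesothelial value reached the lowest fibroblast value, and the change was -1.97 ± 0.19, adjusted p = 1.6e-06 in mural cells and -1.71 ± 0.18, adjusted p = 6.8e-06 in mesothelial cells.

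Col1a1 and Col1a2, which combine in the type I trimer, followed the same order for fibroblasts but differed in mesothelial cells. Col1a1 was 6148, 4199.8 and 4892 CPM in fibroblasts, 1265, 1913 and 1679 CPM in mural cells and 828, 596 and 538 CPM in mesothelial cells. Col1a2 was 6929, 4423 and 6134 CPM in fibroblasts, 1198, 1345 and 1573 CPM in mural cells and 1637, 1311 and 1327 CPM in mesothelial cells. Mesothelial cells were below mural cells in every tumour for Col1a1, while for Col1a2 they overlapped. The UMI ratio of Col1a1 to Col1a2 was accordingly 0.506, 0.455 and 0.406 in mesothelial cells, 0.887, 0.95 and 0.797 in fibroblasts and 1.06, 1.42 and 1.07 in mural cells, 3 ranges that did not overlap. Against fibroblasts Col1a1 changed by -1.73 ± 0.28, adjusted p = 3.4e-04 in mural cells and -2.85 ± 0.30, adjusted p = 4.8e-06 in mesothelial cells, and Col1a2 by -2.18 ± 0.24 and -1.92 ± 0.24. The ratio compares the same pair of genes between classes and is no ratio of molecules, since UMIs per transcript can differ between genes.

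The type V chains, which start and limit the width of type I fibrils, were divided between fibroblasts and mural cells. Col5a1 stood at 530.1, 304 and 444 CPM in fibroblasts and 142, 156 and 144 CPM in mural cells (-1.59 ± 0.19, adjusted p = 1.7e-05). Col5a2 stood at 1072, 1131 and 1179 CPM in fibroblasts and 719, 760.3 and 889 CPM in mural cells (-0.61 ± 0.16, adjusted p = 0.0124). Col5a3 stood at 75.9, 80 and 38.1 CPM in fibroblasts and 177, 182 and 194 CPM in mural cells (1.52 ± 0.23, adjusted p = 2.0e-04). So Col5a1 and Col5a2 were lower and Col5a3 higher in mural cells, with no overlap between these classes for any of the 3. Without tumour 2 the smaller Col5a2 difference was -0.56 (adjusted p = 0.0799). Mesothelial cells had 61.5, 32.5 and 39.2 CPM of Col5a1, 273, 169 and 213 CPM of Col5a2 and 13.9, 19.5 and 5.87 CPM of Col5a3, all below both other classes. Col5a3 relative to Col5a2 was 0.247, 0.239 and 0.218 in mural cells and 0.0708, 0.0707 and 0.0323 in fibroblasts.

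The other fibrillar chains were less abundant. Col11a1, a type XI chain of cartilage fibrils, was 69.7, 33.7 and 140.4 CPM in fibroblasts and at most 5.85 CPM in mural, 3.25 CPM in mesothelial and 3.21 CPM in epithelial cells. Endothelial cells had 1.68, 15.8 and 18.6 CPM, from 2, 2 and 4 UMIs. Fibroblasts of tumours 1, 2 and 3 thus varied among themselves, yet lay above every other class in each tumour (-4.36 ± 0.66, adjusted p = 1.8e-04 in mural cells). Col27a1, a fibrillar chain known from cartilage, ran the other way: it was 119, 59.1 and 23.4 CPM in epithelial cells, 47.8, 39 and 6.19 CPM in fibroblasts and 43.5, 19.2 and 21.4 CPM in mural cells. The epithelial level exceeded the fibroblast level within every tumour, while the ranges over tumours overlapped, and fibroblast minus epithelial was -1.19 ± 0.31, adjusted p = 0.0041. That call was lost without tumour 1 (-1.09, adjusted p = 0.0813) and without the tumour block (-1.13, adjusted p = 0.258). Of the low chains, Col24a1 reached at most 4.96 CPM, in fibroblasts, and Col11a2 at most 1.50 CPM, in fibroblasts of tumour 3.

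Among the type IV chains, Col4a1 and Col4a2 were higher in mural and endothelial cells than in the other classes in every tumour, and Col4a5 and Col4a6 were highest by mean in mesothelial cells. Col4a1 and Col4a2 form the common basement membrane trimer, and their genes lie head to head with annotated starts 21 bases apart on opposite strands. Their promoters are shown because both chains were highest in the same cells; the windows overlap, being 250 bases before to 50 bases after each start, from RefSeq on GRCm38.p6. The promoters of Col4a5 and Col4a6, a second head-to-head pair with starts 1343 bases apart on the X chromosome, follow because both were highest in mesothelial cells. Capitals mark GGGCGG (a GC box) and the motif CCAAT on either strand, matches that do not overlap one another. The motif TATAAA, searched on both strands as well, was in none of the 4.
Col4a1 (chr8:11312777-11313076, minus strand): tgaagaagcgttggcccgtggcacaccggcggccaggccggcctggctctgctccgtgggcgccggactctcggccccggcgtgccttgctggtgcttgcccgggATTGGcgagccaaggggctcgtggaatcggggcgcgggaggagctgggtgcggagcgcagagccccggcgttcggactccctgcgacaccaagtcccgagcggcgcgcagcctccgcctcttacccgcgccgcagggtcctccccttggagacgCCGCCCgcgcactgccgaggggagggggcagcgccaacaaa
Col4a2 (chr8:11312555-11312854, plus strand): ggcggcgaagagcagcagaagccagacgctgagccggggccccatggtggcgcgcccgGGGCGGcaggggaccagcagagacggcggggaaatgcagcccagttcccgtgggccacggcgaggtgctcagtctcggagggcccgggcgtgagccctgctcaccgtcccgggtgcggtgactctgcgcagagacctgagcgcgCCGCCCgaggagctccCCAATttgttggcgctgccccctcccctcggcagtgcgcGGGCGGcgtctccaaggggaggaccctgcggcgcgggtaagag
Col4a5 (chrX:141475169-141475468, plus strand): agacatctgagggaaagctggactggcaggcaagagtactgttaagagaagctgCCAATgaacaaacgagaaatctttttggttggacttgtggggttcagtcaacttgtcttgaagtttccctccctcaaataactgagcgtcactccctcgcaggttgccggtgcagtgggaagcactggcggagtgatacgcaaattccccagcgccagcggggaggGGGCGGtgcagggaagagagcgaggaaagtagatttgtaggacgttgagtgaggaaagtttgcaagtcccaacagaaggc
Col4a6 (chrX:141474027-141474326, minus strand): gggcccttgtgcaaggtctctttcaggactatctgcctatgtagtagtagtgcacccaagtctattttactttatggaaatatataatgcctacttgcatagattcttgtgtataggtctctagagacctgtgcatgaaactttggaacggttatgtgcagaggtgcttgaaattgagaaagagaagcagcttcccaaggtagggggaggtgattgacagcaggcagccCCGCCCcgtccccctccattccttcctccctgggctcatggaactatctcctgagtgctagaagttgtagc
GGGCGG was held on either strand by 35.7% of the 32851 RefSeq promoters, CCAAT by 37.4% and TATAAA by 13.6%. Entries were found for 32 of the 38 chains, 34 windows in all, of which 23 held GGGCGG, 11 CCAAT and 4 TATAAA. A match describes letters in a window, not a bound site.

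Col4a1 was 1972, 2011 and 2964 CPM in mural cells, 1879, 1269.5 and 2497 CPM in endothelial cells and 569, 491 and 749.9 CPM in fibroblasts. It was 297, 219 and 227 CPM in mesothelial and 50.4, 55.4 and 64.2 CPM in epithelial cells. Mural and endothelial values overlapped with each other and lay above every value of the other classes. Against fibroblasts the change was 1.85 ± 0.16, adjusted p = 7.9e-07 in mural cells and 1.60 ± 0.18, adjusted p = 7.4e-06 in endothelial cells, and endothelial minus mural was -0.25 ± 0.18, adjusted p = 0.403. Col4a2 was 1126, 1129 and 1704 CPM in mural cells, 1197, 867 and 1635 CPM in endothelial cells and 357, 327 and 586 CPM in fibroblasts, with the same order. Its changes were 1.56 ± 0.15 in mural and 1.48 ± 0.16 in endothelial cells against fibroblasts, and -0.08 ± 0.17, adjusted p = 0.821 for endothelial minus mural. Across classes with means from 56.7 to 2316 CPM of Col4a1, the ratio of Col4a1 to Col4a2 stayed between 1.28 and 2.26: it was 1.76 ± 0.022 (SD) in mural cells, 1.46 ± 0.162 in fibroblasts and 2.07 ± 0.21 in mesothelial cells, whose range lay above those of the other 4 classes. The exons of these neighbours share 22 bases at their starts, far from the 3' ends that were counted.

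Col4a5, which joins Col4a6 in some smooth muscle and epithelial basement membranes and Col4a3 and Col4a4 in the kidney, was 45.3, 53.6 and 35.2 CPM in mesothelial cells, 22.6, 11.2 and 16.1 CPM in fibroblasts and 5.19, 5.48 and 5.48 CPM in epithelial cells. Mural cells had 3.25, 2.89 and 1.65 CPM. Every mesothelial value lay above every fibroblast value (1.50 ± 0.26, adjusted p = 4.7e-04), the opposite of Col4a1 and Col4a2, which were lower in mesothelial cells (-1.15 ± 0.16 and -1.66 ± 0.16). Col4a6 was 13.4, 11.4 and 17.6 CPM in mesothelial cells and at most 1.98 CPM in any other class (3.33 ± 0.50, adjusted p = 1.8e-04 against fibroblasts). It had a UMI in 14.0%, 11.3% and 16.1% of mesothelial cells and in 1.55%, 0.895% and 0.657% of fibroblasts; thinned to 3000 UMIs per cell, since mesothelial cells were deeper (median 9480 against 7132 UMIs in tumour 1), the shares were 4.83%, 6.45% and 7.27% against 0.777%, 0.224% and 0.363%. No Col4a6 UMI was seen in 278 endothelial cells, and over 711 mural cells there were 2. Col4a4 was highest in mural cells with 9.75, 8.66 and 28 CPM against 4.13, 2.53 and 1.88 CPM in fibroblasts (2.19 ± 0.53, adjusted p = 0.0071), and tumour 3 stood above the others; without tumour 3 the change was 1.33 (adjusted p = 0.171). Col4a3, too sparse for the test, reached 3.25, 0.962 and 14 CPM in mural cells, where tumour 3 was again highest.

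The type VI chains differed from one another between classes. Col6a1 and Col6a2, the constant partners of the beaded filament, were highest in fibroblasts by mean. Col6a1 was 765, 651 and 966.5 CPM in fibroblasts, 461, 497 and 726 CPM in mesothelial cells and 324, 404 and 273 CPM in mural cells. Col6a2 was 473, 334 and 458 CPM in fibroblasts, 219, 249 and 327 CPM in mesothelial cells and 215, 269 and 223 CPM in mural cells. Mesothelial values lay below fibroblast values within each tumour. That difference passed for Col6a2 (-0.60 ± 0.17, adjusted p = 0.0198; without tumour 1 it was -0.40 with adjusted p = 0.269) and did not pass for Col6a1 (-0.43 ± 0.19, adjusted p = 0.122). Mural cells were lower than fibroblasts for both chains (-1.31 ± 0.19 and -0.92 ± 0.17). Col6a3, the large remaining chain of the classical trimer, was 537, 651 and 412 CPM in mural cells, 272, 254 and 180.2 CPM in fibroblasts and 38.8, 39 and 7.83 CPM in mesothelial cells. All mural values lay above all fibroblast values (1.09 ± 0.19, adjusted p = 5.9e-04), and all mesothelial values lay below them (-2.86 ± 0.24, adjusted p = 5.8e-07). The ratio of Col6a3 to Col6a1 was therefore 1.66, 1.61 and 1.51 in mural cells, 0.355, 0.391 and 0.186 in fibroblasts and 0.0843, 0.0784 and 0.0108 in mesothelial cells, without overlap.

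The chains that can take the place of Col6a3 were sparse. Col6a5 was 12, 4.87 and 15.7 CPM in mesothelial cells and 15.9, 1.4 and 8.63 CPM in fibroblasts, which overlapped (0.37 ± 0.55, adjusted p = 0.701). Col6a6 was 7.4, 4.87 and 1.96 CPM in mesothelial cells and 8.76, 0.561 and 1.31 CPM in fibroblasts (0.51 ± 0.66, adjusted p = 0.658), and Col6a4 stayed at or below 4.3 CPM. All 3 were highest, among fibroblasts, in tumour 1.

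**Figure D3:**
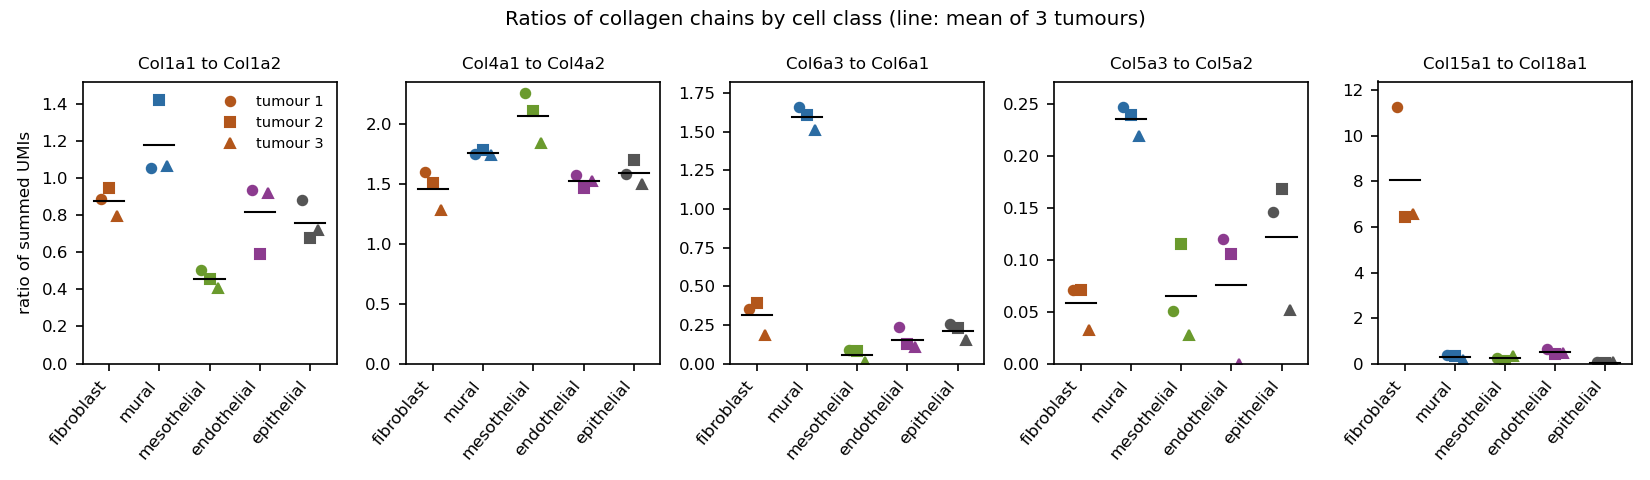
Ratio of summed UMIs of 5 pairs of chains in 5 classes; symbols are tumours and lines the mean of 3 tumours. Mesothelial cells are lowest for Col1a1 to Col1a2 and highest for Col4a1 to Col4a2, mural cells are highest for Col6a3 to Col6a1 and Col5a3 to Col5a2, and fibroblasts are highest for Col15a1 to Col18a1.

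The fibril-associated chains coat fibrils and link them to other matrix, and the 3 of 6 that were tested, Col12a1, Col14a1 and Col16a1, were higher in fibroblasts than in epithelial cells. Col12a1 was 211, 414 and 626 CPM in fibroblasts and 81.9, 104 and 151 CPM in mural cells (-1.92 ± 0.31, adjusted p = 3.0e-04), and it was 23.6, 4.87 and 19.6 CPM in mesothelial cells. Each class stood apart from the next in every tumour. Col14a1, a second such chain, was 276, 39.6 and 139.6 CPM in fibroblasts, 35.1, 51 and 37 CPM in mural cells and 43, 84.5 and 17.6 CPM in mesothelial cells. In tumour 2 fibroblasts lay below both other classes, while in tumours 1 and 3 they lay above them. The mural difference (-1.90 ± 0.52, adjusted p = 0.0142) was lost without tumour 1 (-1.13, adjusted p = 0.307) and without tumour 3 (-1.79, adjusted p = 0.105). Col16a1 was 96, 61.7 and 85.4 CPM in fibroblasts, 31.4, 19.5 and 52.9 CPM in mesothelial cells and 28.6, 21.2 and 17.3 CPM in mural cells (-1.93 ± 0.25, adjusted p = 4.7e-05 in mural cells, -1.21 ± 0.26, adjusted p = 0.0027 in mesothelial cells; the latter was lost without tumour 1, with adjusted p = 0.0981).

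Chains of cartilage type IX were near the floor. Col9a3 was 6.27, 1.05 and 0.66 CPM in epithelial cells, with most of its UMIs in tumour 1, and had no UMI in mural, mesothelial or endothelial cells. Col9a2 was 0.826, 0.842 and 8.63 CPM in fibroblasts, and Col20a1 stayed at or below 0.903 CPM. Exons of Col9a3 share 234 bases with Tcfl5 on the opposite strand in the GENCODE annotation. The sources used here do not say whether counting used the strand, so these reads cannot be told apart.

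Col7a1, which forms the anchoring fibrils under stratified epithelia, was 23.3, 59.2 and 65.1 CPM in fibroblasts, 10.4, 15.4 and 62.6 CPM in mural cells and 6.07, 12.1 and 8.43 CPM in epithelial cells. In tumour 3 mural cells were close to fibroblasts, and the difference did not pass (-0.88 ± 0.36, adjusted p = 0.0955). Fibroblasts were above epithelial cells in each tumour (2.35 ± 0.32, adjusted p = 1.6e-05) and above mesothelial cells, at 2.77, 6.5 and 1.96 CPM (-3.38 ± 0.55, adjusted p = 2.9e-04).

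The short chain collagens marked different classes. Col8a1, a chain of vessel walls and of the corneal Descemet membrane, was 505, 792 and 555 CPM in fibroblasts, 296, 450.4 and 274 CPM in mural cells and 10.6, 13 and 7.83 CPM in mesothelial cells. Mural values were below fibroblast values (-0.96 ± 0.13, adjusted p = 8.5e-05), and mesothelial values were the lowest of these classes (-5.68 ± 0.20, adjusted p = 1.1e-10). Its partner Col8a2 was 19.7, 12.1 and 13.5 CPM in fibroblasts, with 1 UMI over 711 mural cells and none over 278 endothelial cells; against a floor of 3 UMIs over all endothelial cells, or 1.96 CPM, the fibroblast mean was at least 7.7-fold higher.

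Col10a1, known as the collagen of hypertrophic cartilage, was a mural chain here. It was 197, 134 and 319 CPM in mural cells, 5.45, 24.1 and 8.26 CPM in fibroblasts, 3.24, 1.62 and 1.96 CPM in mesothelial cells and 2.36, 1.27 and 2.22 CPM in epithelial cells. Every mural value lay above every value of the other classes (4.09 ± 0.44, adjusted p = 6.1e-06 against fibroblasts), and endothelial cells held 1 UMI over 278 cells. The chain was seen in 18.4%, 15.7% and 17.2% of mural cells and in 1.56%, 0.899% and 0.981% of epithelial cells, a class that should lack it. After thinning to 3000 UMIs the shares were 14.0%, 11.3% and 19.7% of mural cells, 0.518%, 2.91% and 2.18% of fibroblasts and 0.38%, 0.18% and 0.221% of epithelial cells. Cells with fewer UMIs were left out of these shares. In tumour 3 that kept 188 of 302 mural cells, so its 17.2% and 19.7% do not cover the same cells. Median depths were 5324, 5441 and 3507 UMIs in mural cells and 7132, 7304 and 5490.0 UMIs in fibroblasts, so mural cells were the shallower class. Most of its UMIs, 64.8%, 68.2% and 64.5%, lay in barcodes of no class. Its promoter and that of Col13a1, the chain highest by mean in endothelial cells, are shown. Each holds TATAAA, in capitals, and neither of the other motifs (RefSeq, GRCm38.p6). The position differs: the match lies shortly before the annotated start in Col10a1 and at the far upstream end of the window in Col13a1. Exons of Col10a1 and Nt5dc1, on the opposite strand, share 18 bases.
Col10a1 (chr10:34389731-34390030, plus strand): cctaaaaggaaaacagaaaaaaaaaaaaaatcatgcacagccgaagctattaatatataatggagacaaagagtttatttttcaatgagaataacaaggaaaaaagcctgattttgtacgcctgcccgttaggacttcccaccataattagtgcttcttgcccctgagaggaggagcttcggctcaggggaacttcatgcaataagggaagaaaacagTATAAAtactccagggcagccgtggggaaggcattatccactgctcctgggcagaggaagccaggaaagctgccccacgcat
Col13a1 (chr10:61979059-61979358, minus strand): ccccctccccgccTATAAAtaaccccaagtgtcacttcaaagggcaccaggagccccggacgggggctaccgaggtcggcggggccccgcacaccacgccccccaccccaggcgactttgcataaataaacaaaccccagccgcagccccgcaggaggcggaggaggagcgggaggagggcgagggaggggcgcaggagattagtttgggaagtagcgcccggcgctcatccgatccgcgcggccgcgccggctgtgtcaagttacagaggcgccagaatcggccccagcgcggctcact

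The multiplexins, proteoglycan collagens at the outer face of basement membranes, were opposite in fibroblasts and epithelium. Col18a1, whose C-terminal fragment is endostatin, was 678, 737 and 762 CPM in mural cells, 548, 402 and 508 CPM in endothelial cells and 98.9, 187 and 143 CPM in epithelial cells. It was 48.1, 87.7 and 37.2 CPM in mesothelial cells and 32.4, 83.1 and 36.6 CPM in fibroblasts. Both vessel classes lay above all others, and epithelial values lay above fibroblast values. Against fibroblasts the change was 3.88 ± 0.23, adjusted p = 2.7e-08 in mural cells and 3.58 ± 0.26, adjusted p = 8.6e-08 in endothelial cells; fibroblast minus epithelial was -1.57 ± 0.21, adjusted p = 1.5e-05, and endothelial minus mural was -0.31 ± 0.24, adjusted p = 0.446.

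Col15a1 was 365, 533 and 239.8 CPM in fibroblasts, 248, 245 and 132 CPM in mural cells, 346, 173 and 233 CPM in endothelial cells and 6.24, 3.88 and 6.6 CPM in epithelial cells. Fibroblasts were above mural cells within each tumour (-0.95 ± 0.24, adjusted p = 0.0096), though without tumour 1 the adjusted p was 0.063, and the difference between endothelial cells and fibroblasts did not pass (-0.42 ± 0.30, adjusted p = 0.338). Mesothelial cells were at 11.6, 11.4 and 11.7 CPM (-4.96 ± 0.35, adjusted p = 1.3e-07). The ratio of Col15a1 to Col18a1 was 11.3, 6.42 and 6.55 in fibroblasts and at most 0.631 in every tumour of every other class.

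Among the transmembrane collagens, Col13a1, a cell-surface chain known from the neuromuscular junction, was highest in endothelial cells of tumours 1 and 3. It was 73.1, 0 and 154 CPM in endothelial cells of tumours 1, 2 and 3, 0, 0 and 3.29 CPM in mural cells and 0.661, 0.281 and 2.06 CPM in fibroblasts. It had a UMI in 47 of 198 endothelial cells of tumour 1 (23.7%, 95% Clopper-Pearson interval 18.0% to 30.3%) and 24 of 61 of tumour 3 (39.3%, 27.1% to 52.7%). In tumour 2 it was seen in 0 of 19 endothelial cells; the floor of 3 cells allows a share of cells with a UMI of up to 15.8%, and the Clopper-Pearson interval reaches 17.65%. Epithelial cells, far deeper with a median of 11434 UMIs against 5060 UMIs in tumour 1, had it in 0.169%, 0% and 0.153% of cells. On tumours 1 and 3 endothelial minus fibroblast was 6.18 ± 0.57, adjusted p = 3.3e-06, and endothelial minus mural 6.25 ± 0.67, adjusted p = 2.1e-05. With no UMI over 325 mesothelial cells, the endothelial mean was at least 82.9-fold higher than the floor of 3 UMIs there. Intervals and floors cover counting error only.

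Col23a1 was 6.45, 8.98 and 10.5 CPM in fibroblasts and 2.6, 0 and 1.65 CPM in mural cells (-2.61 ± 0.65, adjusted p = 0.0084), and without tumours 2 or 3 the call was lost (adjusted p = 0.0709 and 0.0858). Col25a1, a chain of neurons and of developing muscle, was 2.64, 6.74 and 7.32 CPM in fibroblasts and was not seen in 325 mesothelial cells, at least 6.1-fold below fibroblasts. Mural cells had 3.25, 0.962 and 0 CPM of it. Endothelial cells had 0.84, 7.89 and 4.66 CPM, from 1 UMI in each tumour. Neither class differed from fibroblasts in the test (-1.76 ± 0.86, adjusted p = 0.175 in mural and -1.36 ± 1.38, adjusted p = 0.526 in endothelial cells). Col28a1 was 8.43, 2.81 and 4.32 CPM in fibroblasts and had too few UMIs for the test.

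**Figure D4:**
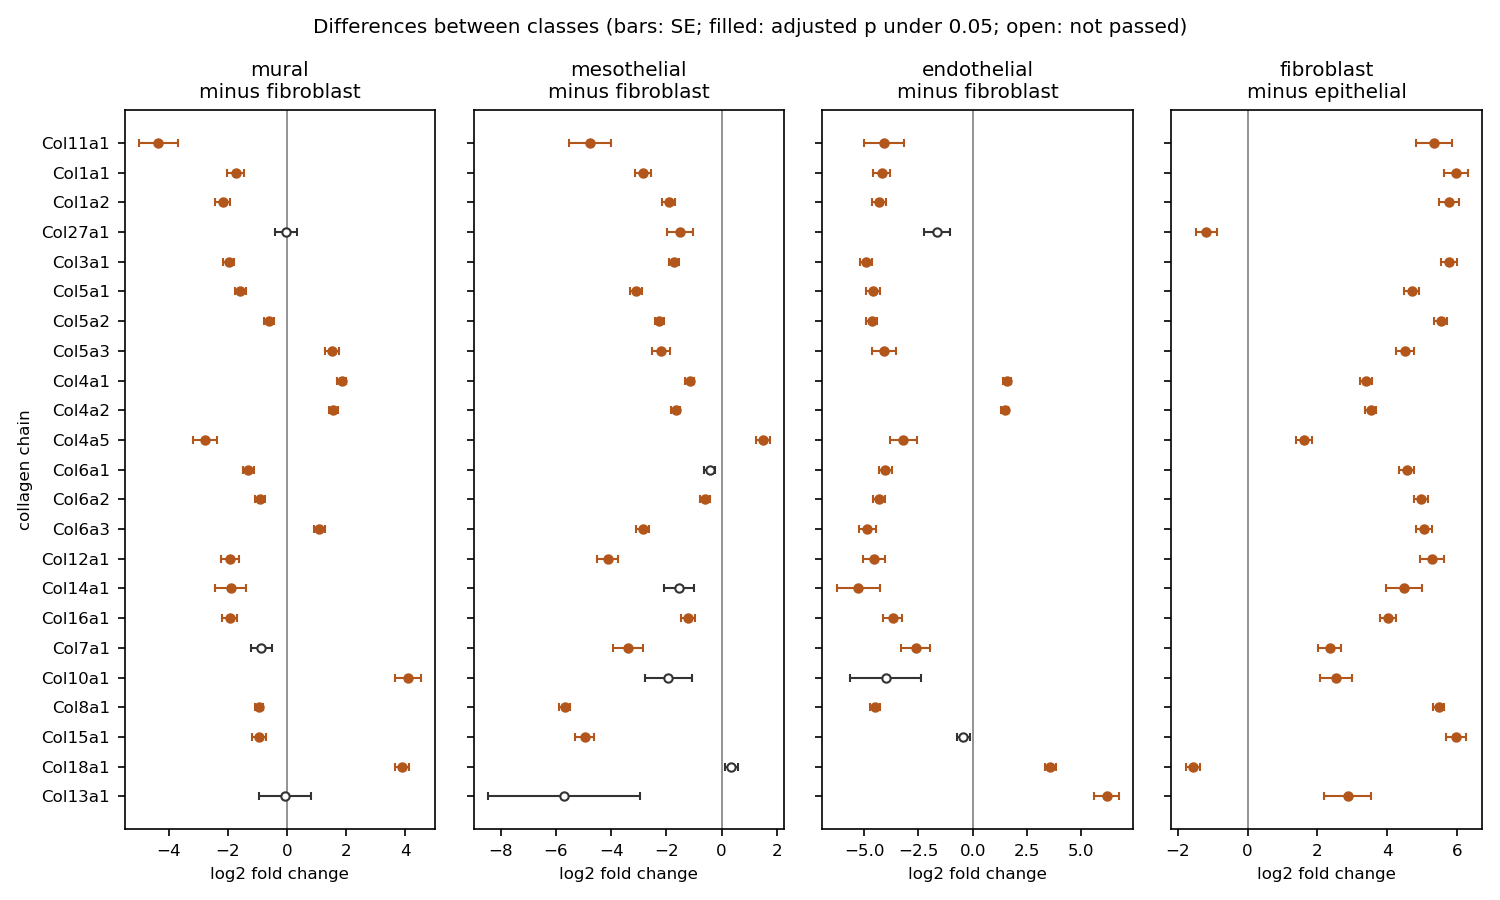
Log2 fold change of the 23 chains (rows, by family) in 4 comparisons, with bars of 1 SE; filled points have an adjusted p under 0.05 in edgeR's quasi-likelihood test. Mural cells show 6 of these chains on the right (Col5a3, Col4a1, Col4a2, Col6a3, Col10a1 and Col18a1), mesothelial cells only Col4a5 as a filled point on the right, and endothelial cells Col4a1, Col4a2, Col18a1 and Col13a1.

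Epithelial cells had some UMIs of every one of the 23 chains, and the markers of fibroblasts show how much of a fibroblast gene is seen in epithelial barcodes. Mfap5 and Islr, at 0.356% to 1.21% of their fibroblast level in the same tumour, are part of the class rule, which favours low values there. They are left aside. The 8 further fibroblast markers stood in epithelial cells at 0.8945% to 7.12% of their fibroblast level. Col1a1 was at 1.36%, 1.57% and 1.89%, Col1a2 at 1.36%, 2.20% and 2.09%, and Col3a1 at 1.42%, 1.93% and 2.25%, inside that range. Col4a1 was at 8.86%, 11.3% and 8.56%, Col4a2 at 8.92%, 9.98% and 7.30%, and Col7a1 at 26.1%, 20.4% and 13.0%, above it in every tumour. Col4a5 was at 22.9%, 48.9% and 34.0%. Col18a1 was at 305%, 226% and 390% and Col27a1 at 249%, 152% and 377% of the fibroblast level. The marker range describes transcripts of fibroblasts only. Col4a1, Col4a2 and Col18a1 were higher in mural and endothelial cells than in fibroblasts, and Col4a5 in mesothelial cells. For Col4a1, epithelial cells had 50.4, 55.4 and 64.2 CPM against 1972, 2011 and 2964 CPM in mural cells. A percent above the range thus does not set these chains apart from RNA of those classes. Free RNA taken up by droplets was not tested for single chains, and epithelial values inside the range of the fibroblast markers cannot be told apart from it.

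**Figure D5:**
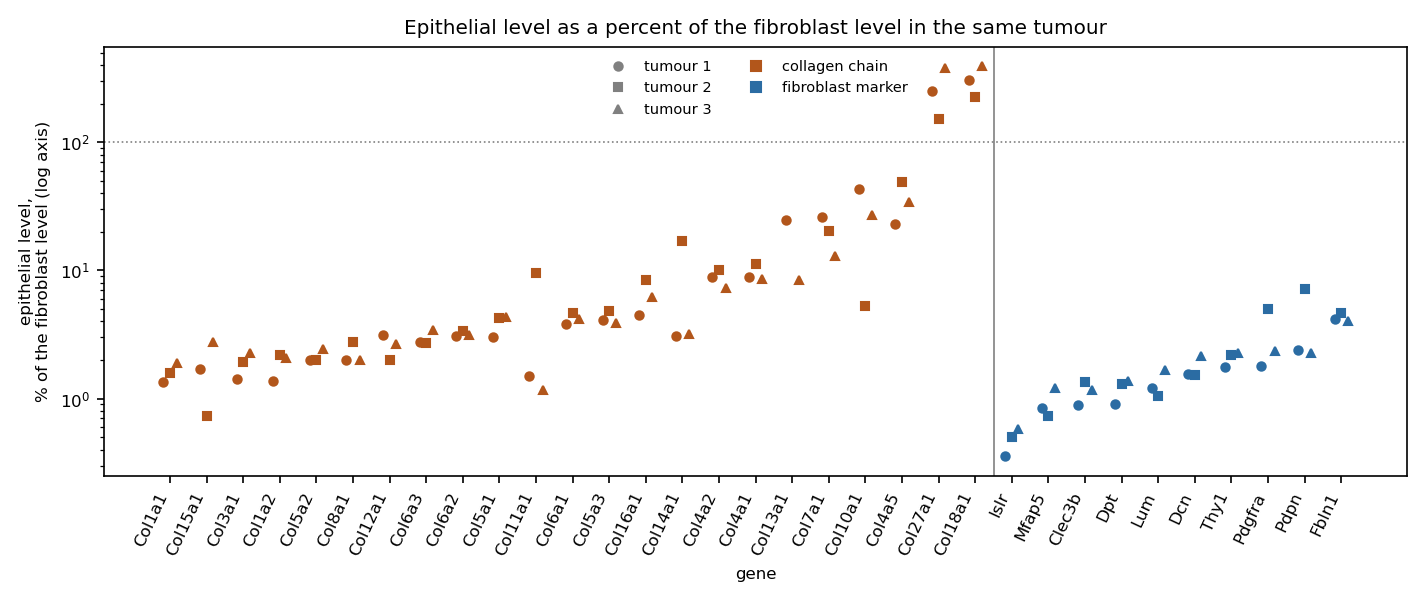
Level in epithelial cells as a percent of the level in fibroblasts of the same tumour (log axis), for 23 collagen chains (left of the line) and 10 fibroblast markers (right); symbols are tumours, the dotted line marks equal levels, and values of 0 (Col13a1 in tumour 2) are not drawn. Col27a1 and Col18a1 lie above 100% in all tumours, and the fibroblast markers lie at 7.12% or below.

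Most genes that fold, modify, cut and cross-link collagen were higher in fibroblasts than in epithelial cells. Of 34 such genes 29 were tested. Fibroblasts had 26 higher and 1 lower than epithelial cells (median log2 change 2.71), where 26.7% of all tested genes were higher and 27.8% lower (median -0.07); the lower one was Mia2, a factor of export from the endoplasmic reticulum (-4.42 ± 0.76, adjusted p = 2.5e-04). The leading examples were the procollagen protease Adamts2 (5.69 ± 0.30), the cross-linking oxidases Lox (5.34 ± 0.22) and Loxl1 (5.32 ± 0.27), and the prolyl hydroxylase P3h3 (5.18 ± 0.18), all with adjusted p of 5.9e-10 or less.

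Mural cells had 2 of the 29 higher and 12 lower than fibroblasts (median -0.39), where 10.1% of all tested genes were higher and 13.4% lower (median -0.04). Lox was 397, 279.8 and 359 CPM in fibroblasts and 29.2, 11.6 and 31.3 CPM in mural cells (-3.95 ± 0.23, adjusted p = 2.1e-08), without overlap, and Loxl1 (-2.60 ± 0.25), the protease enhancer Pcolce2 (-3.26 ± 0.65) and the lysyl hydroxylase Plod2 (-2.31 ± 0.26, adjusted p = 1.0e-05) were lower as well. The 2 higher genes were the oxidase Loxl2 (0.67 ± 0.18, adjusted p = 0.0124) and P3h2, a prolyl hydroxylase known to act on type IV collagen, at 11.1, 13.5 and 22.2 CPM in mural cells and 0.331, 1.68 and 0.188 CPM in fibroblasts (4.49 ± 0.62, adjusted p = 1.5e-04). Serpinh1, the collagen chaperone, was 1192, 1302 and 523 CPM in mural cells and 1358, 1275 and 403.5 CPM in fibroblasts (-0.03 ± 0.15, adjusted p = 0.936), and in both tumour 3 was lowest. P4ha1, a catalytic subunit of the prolyl hydroxylase that stabilises the helix, likewise did not pass (-0.26 ± 0.20, adjusted p = 0.399).

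Mesothelial cells had 1 of the 29 higher, P3h4, a partner of lysyl hydroxylation (1.32 ± 0.17, adjusted p = 3.3e-05), and 19 lower than fibroblasts (median -0.95), where 11.4% of all tested genes were higher and 11.1% lower (median -0.05). Pcolce2 (-5.70 ± 1.03, adjusted p = 7.3e-04), P3h3 (-2.35 ± 0.20), Adamts2 (-2.33 ± 0.29) and Loxl3 (-2.25 ± 0.44) led these, Serpinh1 (-0.76 ± 0.15) and Lox (-1.40 ± 0.20) were also lower, as was Plod2, with 120.2, 82.8 and 52.9 CPM in mesothelial cells against 275, 179.6 and 104 CPM in fibroblasts (adjusted p = 0.008), and P4ha1 did not pass (-0.13 ± 0.21, adjusted p = 0.722). Endothelial cells had 2 higher, Plod1 (1.56 ± 0.20, adjusted p = 2.6e-05) and P3h2 (3.84 ± 0.89, adjusted p = 0.0058), and 24 lower than fibroblasts, against 11.8% and 15.6% of all tested genes, among them Loxl3 (-6.14 ± 1.03), Lox (-5.54 ± 0.36), P4ha3 (-5.40 ± 0.91), Loxl1 (-5.19 ± 0.43), Plod2 (-4.10 ± 0.44), P4ha1 (-2.13 ± 0.35) and Serpinh1 (-0.94 ± 0.19). Against mural cells endothelial cells had Plod1 higher (1.96 ± 0.21) and 17 lower (median -1.18), against 9.41% and 9.61% of all tested genes, led by Loxl3 (-5.93 ± 1.07), P4ha3 (-5.82 ± 0.89), Loxl2 (-5.13 ± 0.35) and Adamts2 (-4.56 ± 0.48); Serpinh1 (-0.91 ± 0.19), P4ha1 (-1.87 ± 0.36), Plod2 (-1.79 ± 0.48) and Lox (-1.58 ± 0.44) were lower too.

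Collagen receptors differed between the classes in which ones were high. Of 8 receptor and uptake genes, 5 were higher and 2 lower in fibroblasts than in epithelial cells, where 26.7% and 27.8% of all tested genes were. The uptake receptor Mrc2 (5.31 ± 0.29, adjusted p = 8.7e-10) and the receptor kinase Ddr2 (4.28 ± 0.38) were higher, and the kinase Ddr1 (-1.99 ± 0.23, adjusted p = 3.0e-06) and the integrin subunit Itga2 (-4.15 ± 0.43) were lower. Mural cells had 3 higher and 1 lower than fibroblasts (10.1% and 13.4% of all tested genes). Itga1, an integrin subunit that binds type IV collagen, was 184.5, 178 and 137 CPM in mural cells and 16.7, 14 and 23.6 CPM in fibroblasts (3.11 ± 0.27, adjusted p = 9.2e-07). Mesothelial cells had Ddr1 higher (2.41 ± 0.26, adjusted p = 7.2e-06) and 4 lower (11.4% and 11.1% of all). Endothelial cells had 1 higher and 5 lower than fibroblasts (11.8% and 15.6% of all), and 1 higher and 6 lower than mural cells (9.41% and 9.61% of all); the higher one in both was Itga2, whose UMIs came from tumour 1 alone.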

How the data were processed

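The authors deposited 1 matrix of whole-number UMI counts per gene and cell, not normalized, with barcodes whose suffix gives the tumour, per the labels. Cell Ranger 2.1.1 and Seurat 3.0 are named in the submitters' processing notes; what each did, the build and the annotation were not given in the sources used here. A deposited cluster table was left aside. Cells came from the barcodes with at least 500 genes and at most 20% mitochondrial counts that met exactly 1 class rule, which also served to remove doublets; Scrublet (scanpy 1.11.5), removing 74, 94 and 144 barcodes, was tried as an alternative. Levels are UMIs summed per class and tumour, as CPM (counts per 1000000 UMIs). Sums of at least 20 cells, 14 in all, entered 1 fit in edgeR 4.0.16 (R 4.3.3; TMM, filterByExpr, quasi-likelihood test, adjusted by Benjamini-Hochberg, threshold 0.05), blocked by tumour because the class sums of a tumour come from the same tumour; the 10 marker genes of the rule were left out. The fit was tested on simulated counts. Alternatives were DESeq2 1.42.0 and its size factors, no filter on low counts, no block, other cell and class rules, and leaving out each tumour. Shares of cells are given as deposited and thinned to 3000 UMIs. Cells with fewer UMIs were left out of the thinned shares, which affected tumour 3 only. There 188 of 302 mural cells, 826 of 914 fibroblasts and 32 of 61 endothelial cells remained. Chains with a mean of at least 20 CPM in a class are named with every value, and other members by range with examples; of the biosynthesis genes, Serpinh1, Lox, P4ha1, Plod2 and the 4 largest calls per comparison are named, and further genes were chosen after their values were seen. The members and lists were chosen with earlier results of these data known.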

Additional observations from a re-analysis of the deposited data

How the results depend on the processing

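Of the 113 calls of a chain in a comparison, none turned its direction under any alternative run. All 113 were kept with DESeq2's size factors, with no filter on low counts and with Scrublet doublets removed; 2 were lost with the DESeq2 test, 14 without the replicate block, 2 of 111 with mixed barcodes kept, 1 of 111 with no cell filter, 4 of 109 with at least 2 UMIs of each marker, and 20 of 109, 3 of 111 and 9 of 113 without tumour 1, 2 or 3. Among the chains named with every value, those lost without the block were Col27a1 (fibroblast minus epithelial, and mesothelial minus fibroblast), Col5a2, Col6a3, Col15a1 and Col8a1 (mural minus fibroblast), Col6a2 (mesothelial minus fibroblast), and Col16a1 and Col12a1 (endothelial minus mural). Without the replicate block 1893 genes and 1 chain were lower in fibroblasts than in epithelial cells, 560.0 genes were higher and 889 lower in mural cells than fibroblasts, 786 higher and 786 lower in mesothelial cells, 903 higher and 1193 lower in endothelial cells, and 699 lower in endothelial than mural cells. With at least 2 UMIs of each marker 2 chains were higher in endothelial than mural cells. Leaving out 1 tumour at a time gave 1 to 3 chains lower in fibroblasts than epithelial cells, 671 to 994 genes higher and 908 to 1291 lower in mural cells than fibroblasts, 769 to 1205 higher and 691 to 1178 lower in mesothelial cells, 406 to 1302 higher and 451 to 1612 genes and 10 to 19 chains lower in endothelial cells, and 307 to 920.0 genes higher and 267 to 1011 lower in endothelial than mural cells; the lowest of each gene count came without tumour 1, which leaves endothelial cells with the 61 of tumour 3, and the lone sum is assumed to vary like the others. Depth limits the sparse chains: 8 of 38 could not be tested, and a count of 0 in endothelial cells allows up to 1.96 CPM. Thinning moved 15 of 23 shares of cells, weighting cells equally moved 2 of 23 levels, and keeping mixed barcodes moved 7 ratios and left 36 within the SD over tumours.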

Other observations

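Barcodes that met no class rule held collagen UMIs as well. They had 3317, 919 and 2309 CPM of Col3a1 in tumours 1, 2 and 3, 289, 119 and 394 CPM of Col4a1, 85.7, 279 and 113 CPM of Col18a1, 44.8, 12.4 and 62.7 CPM of Col10a1 and 0.866, 0.0462 and 2.65 CPM of Col13a1. Tumour 2 had the lowest Col3a1 and the highest Col18a1 of the 3. The low Col13a1 levels came from 15, 2 and 41 UMIs. These were 12.6%, 40% and 40.6% of the Col13a1 UMIs in kept barcodes, against 73.1%, 0% and 32.7% in endothelial cells.

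Of 55 pairs of chains that were neither rare nor near universal in fibroblasts, 39 had the second chain more often in cells with the first than in cells without it in all 3 tumours, and 3 less often in all 3. In mural cells these counts were 59 and 2 of 91 pairs. Pairs of other genes were not counted, so the counts cannot be read as a trait of collagens. After thinning to 3000 UMIs per cell, Col6a1 was seen in 87.5%, 86.2% and 90.5% of fibroblasts that had a Col6a2 UMI and in 71.2%, 66.3% and 65.3% of fibroblasts that had none. Col4a2 was seen in 65.8%, 69.4% and 76.4% of fibroblasts with a Col4a1 UMI and in 37.9%, 36.8% and 49.0% of those without. Col12a1 was seen in 31.2%, 44.6% and 60.5% of fibroblasts with a Col6a2 UMI and in 39.6%, 55.1% and 61.3% of those without. Col15a1, no partner of type V chains, was likewise seen in 56.4%, 65.7% and 36.1% of fibroblasts with a Col5a2 UMI and in 40%, 43.1% and 9.18% of those without, so sharing cells was not limited to chains of 1 trimer. These shares are descriptions over cells of the same tumours and were not tested.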
